A study of Homo sapiens with 16 samples.

Results

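The genes described here are 10 that move, store and sense iron in the cell: TFRC, STEAP3, SLC11A2, FTH1, FTL, SLC40A1, HMOX1, IREB2, ACO1 and NCOA4. They were chosen by symbol and make up 10 of the 63187 genes in the deposited count table. The measurements are RNA-seq libraries, 16 in number, from SK-N-BE(2), an established neuroblastoma line of human origin that carries amplified MYCN. There were 4 groups of 4 libraries. WT cells were labelled wild type, and the other 3 groups were transfected with a form of HIF-2α, the oxygen-regulated transcription factor that EPAS1 encodes. FL denotes the complete protein. N-CTAD and c-IDR are the sample labels of the forms that the design text writes with a delta before each name, so they are read here as lacking those regions. Cells of all groups grew in 21% oxygen, 5% CO2 and 10% serum. The labels do not give the residues removed, the plasmid, the harvest time or a mock transfection of WT cells, so transfection as such and HIF-2α cannot be told apart in comparisons with WT. In the library names the line is BE2c, WT cells are CTRL, FL cells are WT, c-IDR cells are CIDR and N-CTAD cells are NTAD. The labels do not say whether NTAD and N-CTAD name the same region, so which part of the protein that group lacks is uncertain. Groups follow the sample labels here.

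By the labels a replicate number is at the same time a batch, so each of batches 1 to 4 holds 1 library of every group. Nothing in the labels says that replicates were separate cultures beyond the batch number, and p-values measure only the spread between these libraries. Libraries held 38.6 to 56.1 M (mega) counts. Values are CPM, counts per 1 M counts, with library sizes scaled by the trimmed mean of M-values (TMM). EPAS1 was at 13.0, 28.1, 17.3 and 14.3 CPM in the WT libraries of batches 1 to 4 and between 1320 and 5852 CPM in the 12 transfected libraries, so that EPAS1 was low only in libraries labelled WT. All 10 neuroblastoma and sympathoadrenal markers, such as HAND2 and DBH, were present, with a summed level of 5270 to 6322 TPM (transcripts per 1 M, scaled to transcript length). Most of the sum was CHGA at 1613 to 2715 TPM and MYCN at 1778 to 2347 TPM. TH was the lowest, at 0.926 to 11.2 TPM. Of 7 markers of macrophages and erythroid cells, which handle much iron, all were under 1 TPM in every library, and CD163, MARCO and HBB were at 0. Of 8 mesenchymal or stromal markers, 3 were under 1 TPM in every library. The summed level of these 8 was 289 to 474 TPM, most of it THY1 at 261 to 433 TPM. The library of FL replicate 1 stood apart in 1 respect: relative to the other 3 libraries of its batch, the median log2 difference of its long genes minus that of its short genes (upper and lower tertile of length) was −0.32, against −0.13 to 0.20 in the other 15 libraries.

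Most cells take up iron bound to transferrin through the transferrin receptor, TFRC. STEAP3 reduces the iron in the endosome and SLC11A2, also called DMT1, carries it into the cytosol. Surplus iron is stored in ferritin, a shell of heavy chains (FTH1) and light chains (FTL), and leaves the cell through ferroportin (SLC40A1). HMOX1 breaks down heme and so frees its iron, and NCOA4 delivers ferritin to the lysosome. The iron regulatory proteins encoded by ACO1 (IRP1) and IREB2 (IRP2) bind iron-responsive elements, short hairpins in the untranslated regions of mRNAs, when cytosolic iron is low. Binding near the start of the ferritin and ferroportin messages blocks translation, and binding in the tail of the TFRC message slows its decay. HIF proteins are known to raise transcription of several iron genes, TFRC and HMOX1 among them.

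The elements of the FTH1, FTL, SLC40A1 and TFRC messages are shown because the iron regulatory proteins are known to bind them. The search described here found none in the other members. A single element lies in the 5′ UTR of FTH1, FTL and SLC40A1, and 4 lie in the 3′ UTR of TFRC by the search used, which may miss elements of another form. They were found in GENCODE 29 transcripts (GRCh38) as the loop CAGTG followed by a base other than G, flanked by a 5-pair stem with an unpaired C before it. Each is written 5′ to 3′ over 27 bases, with the 6 loop bases in capitals.
FTH1, 5′ UTR, chr11:61967575-61967601, minus strand: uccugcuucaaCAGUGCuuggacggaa
FTL, 5′ UTR, chr19:48965336-48965362, plus strand: ucuugcuucaaCAGUGUuuggacggaa
SLC40A1, 5′ UTR, chr2:189580662-189580688, minus strand: aacuucagcuaCAGUGUuagcuaaguu
TFRC, 3′ UTR, chr3:196050980-196051006, minus strand: auuaucggaagCAGUGCcuuccauaau
TFRC, 3′ UTR, chr3:196050576-196050602, minus strand: auuaucgggagCAGUGUcuuccauaau
TFRC, 3′ UTR, chr3:196050511-196050537, minus strand: uguaucggagaCAGUGAucuccauaug
TFRC, 3′ UTR, chr3:196050464-196050490, minus strand: auuaucgggaaCAGUGUuucccauaau
The same search found an element in the 5′ UTR of 19 of 19627 protein-coding genes (0.0968%) and in the 3′ UTR of 101 (0.515%). A match describes letters and pairing, not a measured site.

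The promoter window of TFRC is shown because TFRC varied most among the 10 genes and because HIF proteins bind a core of ACGTG or GCGTG. The window covers the 250 bases before the start of the gene in RefSeq, build GRCh38.p14, with the match in capitals.
TFRC promoter, chr3:196082091-196082340, minus strand: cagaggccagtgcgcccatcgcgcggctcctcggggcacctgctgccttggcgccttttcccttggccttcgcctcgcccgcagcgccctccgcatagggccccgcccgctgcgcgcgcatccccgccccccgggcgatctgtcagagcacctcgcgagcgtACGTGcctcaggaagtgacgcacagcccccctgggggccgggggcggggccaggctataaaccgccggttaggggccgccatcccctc
It holds 1 match to either core on either strand, an ACGTG that begins 88 bases before the start. Of 35116 RefSeq promoter windows of the same length, 43.2% hold such a match. Among the other members, FTL holds 3 matches. Of the 4 SLC11A2 windows 1 holds 3 matches and 1 holds 1 match, and ACO1 and 1 of the 2 IREB2 windows hold 1. The windows of NCOA4, SLC40A1 and STEAP3 hold 0. The set of windows used here had no entry for FTH1 or HMOX1.

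Levels per transcript length, in TPM over the 16 libraries, put ferritin far above the other members. FTH1 was at 1158 ± 127 TPM (SD, n = 16) and FTL at 976 ± 95 TPM, and the ranges of the ferritin chains overlapped. TFRC followed at 120 ± 34.7 TPM and NCOA4 at 60.5 ± 7.46 TPM. SLC11A2 (33.8 ± 2.60 TPM) and IREB2 (33.2 ± 4.20 TPM) did not differ beyond their spread, nor did STEAP3 (6.63 ± 0.792 TPM), ACO1 (6.58 ± 0.589 TPM) and HMOX1 (5.31 ± 1.73 TPM). SLC40A1 was lowest at 1.2 ± 0.276 TPM. Ferritin genes have many near-identical copies in the genome: 25 copies of FTH1 in the table held 4.77% to 9.56% of the reads of the family, and 17 copies of FTL held 1.05% to 2.20%. For NCOA4, 4 copies held 0.940% to 1.92%. How salmon divided reads between these genes and their copies is uncertain.

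Transfection with the 3 forms of HIF-2α was compared with WT to ask whether HIF-2α or its deletions moved the iron genes. All 10 members passed the filter on low counts, and 0 of 10 were called in FL, N-CTAD or c-IDR against WT at an edgeR adjusted p under 0.05, with 0 of 10 at an unadjusted p under 0.05 in each. Over all 19530 genes tested, 2 genes (0.0102%), 5 genes (0.0256%) and 2 genes (0.0102%) were called in these comparisons. The constructs were also compared with each other. For N-CTAD minus FL, c-IDR minus FL and c-IDR minus N-CTAD, 0 members were called and 0 had an unadjusted p under 0.05, beside 0% of all genes called in each. In all genes, 173, 177 and 119 had an unadjusted p under 0.05 there. DESeq2 and limma on log2 TPM also called 0 members in all 6 comparisons.

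With the batch as a replicate block the model called more genes but still 0 of the 10 members in each of the 6 comparisons. All-gene counts were then 20 (0.102%) for FL, 89 (0.456%) for N-CTAD and 95 (0.486%) for c-IDR against WT. Between constructs they were 0 (0%) for N-CTAD minus FL, 6 (0.0307%) for c-IDR minus FL and 1 (0.00512%) for c-IDR minus N-CTAD. One member, HMOX1, had an unadjusted p under 0.05 in 3 of these comparisons. The median log2 fold change of the 10 members with the block was 0.03, 0.03 and 0.06 for FL, N-CTAD and c-IDR minus WT, and that of all genes tested was 0.01, 0.02 and 0.0079.

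**Figure D1:**
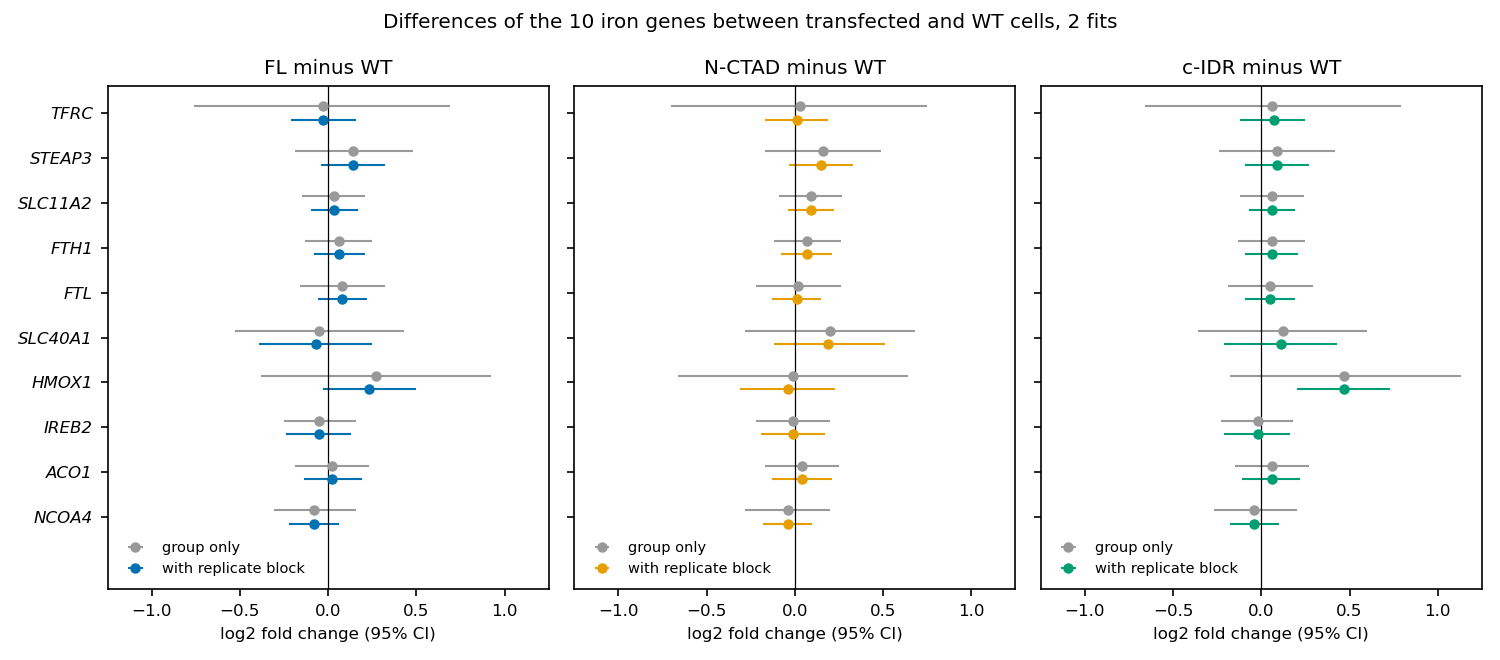
Log2 fold changes of the 10 genes for FL, N-CTAD and c-IDR minus WT, with 95% confidence intervals, from edgeR with group as the only term (grey) and with the replicate block (coloured). Every interval includes 0 except that of HMOX1 in c-IDR minus WT with the block, which runs from 0.20 to 0.73.

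For TFRC the WT libraries of batches 1 to 4 were at 459, 215, 485 and 474 CPM. The FL libraries were at 357, 223, 485 and 532 CPM, the N-CTAD libraries at 471, 202, 482 and 507 CPM, and the c-IDR libraries at 525, 227, 486 and 470 CPM. In every group the library of batch 2 was the lowest, and the groups overlapped. The differences from WT with the block were −0.03 ± 0.09 (SE) in FL, 0.01 ± 0.09 in N-CTAD and 0.07 ± 0.09 in c-IDR on the log2 scale. Their 95% confidence intervals, −0.21 to 0.16, −0.17 to 0.19 and −0.12 to 0.25, did not reach beyond 0.25 in either direction. In batch 3 the 4 libraries lay within 482 to 486 CPM. FL replicate 1, the library in which long genes were low, had the lowest TFRC value outside batch 2. The part of length in its TFRC value was not tested.

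STEAP3, the endosomal ferrireductase, was at 16.6, 13.0, 17 and 17.8 CPM in WT. It was higher in the same batch in 4 of 4 FL libraries (21.1, 14.2, 17.9 and 18.1 CPM) and in 4 of 4 N-CTAD libraries (21.6, 14, 17.3 and 19.2 CPM). The groups overlapped, and most of the difference came from batch 1. The log2 fold changes with the block were 0.14 ± 0.08 in FL (edgeR adjusted p 0.92) and 0.15 ± 0.08 in N-CTAD (0.904). In c-IDR STEAP3 was at 21.5, 15.6, 15.3 and 16.1 CPM, higher than WT in batches 1 and 2 and lower in batches 3 and 4. The iron transporter SLC11A2 varied little, from 62.7 to 83.2 CPM over the 16 libraries, and its differences from WT with the block were 0.03 to 0.09 on the log2 scale.

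Ferritin messages also stayed within narrow limits across groups. FTH1 had group means of 460 ± 43.3 CPM in WT, 479 ± 40.1 CPM in FL, 482 ± 38.4 CPM in N-CTAD and 480 ± 34.4 CPM in c-IDR (SD, n = 4). In c-IDR FTH1 was above WT in 4 of 4 batches, by 0.0099 to 0.09 on the log2 scale, and the groups overlapped. FTL had group means of 486 ± 41.0, 514 ± 59.7, 493 ± 76.4 and 503 ± 45.3 CPM in the same order. The ferritin chains differed from WT by 0.01 to 0.08 on the log2 scale with the block, and no interval reached beyond 0.22.

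SLC40A1, the iron exporter, was at 2.19, 3.07, 2.36 and 2.61 CPM in WT and 3.00, 3.72, 2.44 and 2.62 CPM in N-CTAD. N-CTAD was higher than WT in 4 of 4 batches, with overlap of the groups. Its difference with the block was 0.19 ± 0.15 (edgeR adjusted p 0.988). It was also above FL in 4 of 4 batches (0.26 ± 0.15, edgeR adjusted p 0.996). The FL libraries held 1.92, 3.52, 2.04 and 2.41 CPM and the c-IDR libraries 2.90, 3.59, 2.66 and 1.96 CPM. The 95% confidence intervals with the block were −0.39 to 0.25 for FL minus WT and −0.21 to 0.43 for c-IDR minus WT.

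HMOX1, the inducible heme oxygenase, showed the largest group differences of the 10 genes, in c-IDR against WT and against N-CTAD. It was at 2.80, 5.32, 5.33 and 4.83 CPM in the WT libraries of batches 1 to 4. In c-IDR it was at 4.47, 5.44, 8.40 and 7.07 CPM, above the WT library in 4 of 4 batches. The groups overlapped, since the c-IDR library of batch 1 lay below 3 of the WT libraries. The within-batch differences were 0.67, 0.03, 0.65 and 0.54 on the log2 scale. The fitted log2 fold change was 0.47 ± 0.31 with group as the only term and 0.47 ± 0.12 with the block, a 1.38-fold higher level. It ranked 175 of 19530 genes by p with the block (unadjusted p 0.00204, edgeR adjusted p 0.228) and was not called.

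Batch 2 held the smallest of these HMOX1 differences. With the WT library of batch 2 left out, the blocked c-IDR minus WT value rose to 0.61 and passed (edgeR adjusted p 0.0462), the single case in 16 libraries left out in turn. In those 16 fits the value ranged from 0.39 to 0.61. With all of batch 2 left out it was 0.62 (edgeR adjusted p 0.154).

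FL libraries held HMOX1 at 2.99, 4.95, 6.99 and 7.11 CPM and N-CTAD libraries at 2.72, 3.94, 5.94 and 5.53 CPM. N-CTAD was thus lower than FL in 4 of 4 batches and lower than c-IDR in 4 of 4 batches, with overlap in both cases. The c-IDR minus N-CTAD difference with the block was 0.51 ± 0.12 (95% confidence interval 0.24 to 0.77, edgeR adjusted p 0.875, rank 24 of 19530 by p). N-CTAD minus FL was −0.27 ± 0.12 with an edgeR adjusted p of 0.996. FL minus WT was 0.23 ± 0.12 and N-CTAD minus WT −0.04 ± 0.13. These comparisons share libraries, and none passed the test over all genes.

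EPAS1 was at 4078, 2189, 5852 and 5816 CPM in the c-IDR libraries, the highest of the 4 groups in each batch. The N-CTAD libraries held 2203, 1320, 4228 and 3655 CPM and the FL libraries 1691, 2001, 3580 and 3164 CPM. The order of EPAS1 and that of HMOX1 differed elsewhere. N-CTAD held more EPAS1 than FL in batches 1, 3 and 4 and less HMOX1 in all 4 batches, and in batch 4 HMOX1 was highest in FL. N-CTAD minus WT with the block was 7.13 ± 0.39 on the log2 scale for EPAS1 (edgeR adjusted p 4.51e-07), against the −0.04 ± 0.13 for HMOX1. The part of the EPAS1 level in the HMOX1 differences was not tested.

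**Figure D2:**
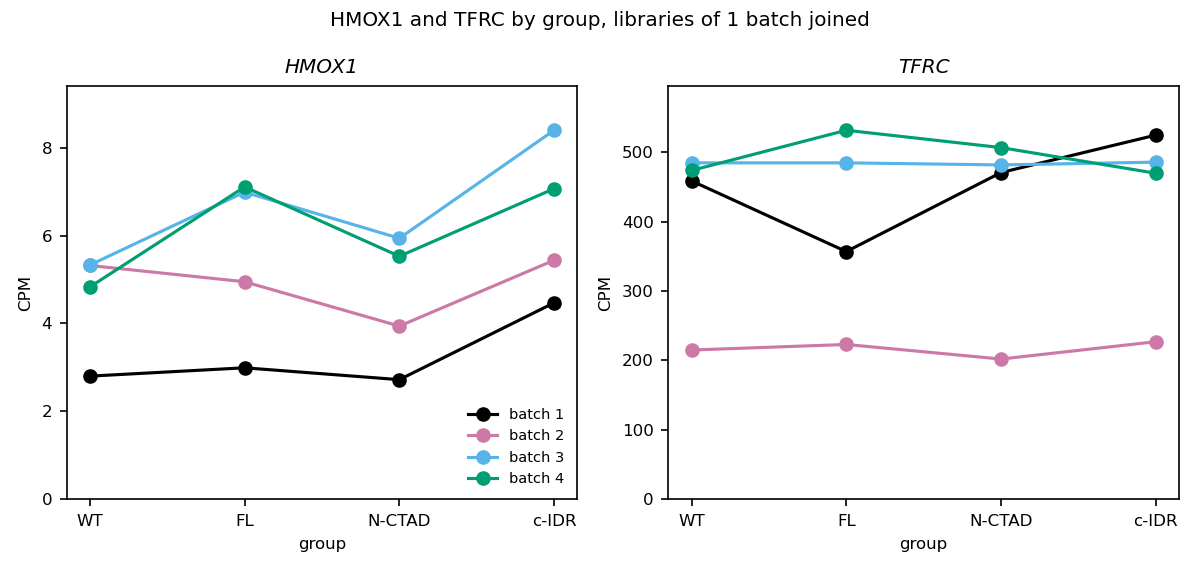
CPM of HMOX1 and TFRC in WT, FL, N-CTAD and c-IDR libraries, with the 4 libraries of each batch joined by a line. HMOX1 is higher in c-IDR than in WT and N-CTAD in each batch and lowest in batch 1 in every group, and TFRC in batch 2 lies between 202 and 227 CPM, under all other libraries.

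The sensors IREB2 and ACO1 were not called in any group comparison, nor was NCOA4. IREB2 lay between 127 and 151 CPM in 15 libraries and at 101 CPM in FL replicate 1. Its differences from WT with the block were −0.05, −0.01 and −0.02 in FL, N-CTAD and c-IDR, each with an SE of 0.09. ACO1 had group means of 17 ± 2.11, 17.3 ± 0.989, 17.5 ± 0.974 and 17.7 ± 1.72 CPM in WT, FL, N-CTAD and c-IDR (SD, n = 4). NCOA4, the receptor that sends ferritin to the lysosome, was at 118 to 165 CPM and differed from WT by −0.08, −0.04 and −0.04 with the block. Its lowest value, 118 CPM, was again in FL replicate 1. The signs of several of these small differences changed under other settings, and none was past the test in any of them.

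The wider iron system gave the same count. Of 86 other genes of iron uptake, export, sensing, heme handling and iron-sulfur cluster assembly, 68 passed the filter. In each of the 6 group comparisons 0 of 68 were called by edgeR, with or without the block, and at an unadjusted p under 0.05 there were between 0 and 3. As a reference, 8 genes known to rise in low oxygen were followed, among them CA9, VEGFA and NDRG1. With group as the only term, 0 of these 8 were called by edgeR in FL, N-CTAD or c-IDR against WT, with 1 of 8 at an unadjusted p under 0.05 in each. With the block, 0 were called in FL, 4 in N-CTAD and 5 in c-IDR, all higher, with medians of 0.42, 0.47 and 0.58 on the log2 scale, beside 0.102%, 0.456% and 0.486% of all genes. Of the 10 neuroblastoma markers, 2 were called with the block in N-CTAD and 2 in c-IDR against WT. Whether these and the iron genes respond differently was not tested.

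Batch 2 was compared with batches 1, 3 and 4 with group as a further term. Earlier results of these data had set batch 2 apart, with genes known to rise in low oxygen high in it. Its 4 libraries share 1 batch, so the test measures the spread within batches, and what differed in batch 2 is not given in the labels. In all, 10521 of 19530 genes (53.9%) were called, so a call alone says little. Of the 10 members 6 were called by edgeR, 2 higher and 4 lower, a share near that of all genes. TFRC was among the larger differences: 7.27% of all genes tested had a larger absolute difference, and 1.15% were lower by more. The other 5 called members were not: 27.2% of all genes had a larger absolute difference than SLC40A1, 41.8% than STEAP3, 57.6% than NCOA4, 70.8% than SLC11A2 and 72.4% than FTL.

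TFRC was at 202 to 227 CPM in the 4 libraries of batch 2 and at 357 to 532 CPM in the other 12, with no overlap. The log2 fold change was −1.14 ± 0.08 (95% confidence interval −1.30 to −0.98, edgeR adjusted p 1.56e-08), which is 2.20-fold lower. It was lower in each of the 4 groups, at −1.14 in WT, −1.02 in FL, −1.27 in N-CTAD and −1.12 in c-IDR. This was the largest batch 2 difference of the 10 genes. Leaving out batch 1, 3 or 4 gave −1.17, −1.14 and −1.11.

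STEAP3 was lower in batch 2 as well, at 13.0 to 15.6 CPM, a difference of −0.36 ± 0.07 (edgeR adjusted p 0.000498). SLC11A2 was lower at −0.16 ± 0.05 (edgeR adjusted p 0.0174). It lost its call without WT replicate 2 (−0.16, edgeR adjusted p 0.0532) or N-CTAD replicate 2 (−0.11, edgeR adjusted p 0.123). Both were lower in 4 of 4 groups and overlapped with the other batches. In fits on log2(TPM + 1) the difference of STEAP3 was −0.19 (limma adjusted p 0.0799) and that of SLC11A2 −0.07 (limma adjusted p 0.375).

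SLC40A1 was at 3.07 to 3.72 CPM in batch 2 and 1.92 to 3.00 CPM in the other libraries, without overlap. Its log2 fold change was 0.52 ± 0.12 (edgeR adjusted p 0.00161), 1.44-fold higher, in 4 of 4 groups. Ferritin moved little: FTL rose by 0.15 ± 0.05 (edgeR adjusted p 0.0271) and FTH1 was at −0.14 ± 0.06 (edgeR adjusted p 0.0537). The FTL call was lost without any 1 of 8 of the 16 libraries and without batch 3 (0.09, edgeR adjusted p 0.25) or batch 4 (0.12, edgeR adjusted p 0.0721). Without batch 1 the FTL value was 0.24 (edgeR adjusted p 7.46e-05), so the full value averages unlike batches. FTH1 passed with DESeq2 (−0.15, DESeq2 adjusted p 0.0194). It also passed in edgeR with no group term (adjusted p 0.0387), median-of-ratios scaling (0.0361), no low-count filter (0.0456) or batch 4 left out (0.0178), and in 6 of 16 fits with a library left out.

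NCOA4 was lower in batch 2 in 4 of 4 groups, by −0.24 ± 0.05 (edgeR adjusted p 0.00184), with −0.16 (limma adjusted p 0.102) on log2(TPM + 1). The sensors were not called: ACO1 was at 0.09 ± 0.06 (edgeR adjusted p 0.23) and IREB2 at −0.0094 ± 0.07 (0.92). HMOX1 was at −0.04 ± 0.10 (edgeR adjusted p 0.781). For HMOX1 this value averages unlike batches, and without batch 1 it was −0.36 (edgeR adjusted p 0.0087).

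**Figure D3:**
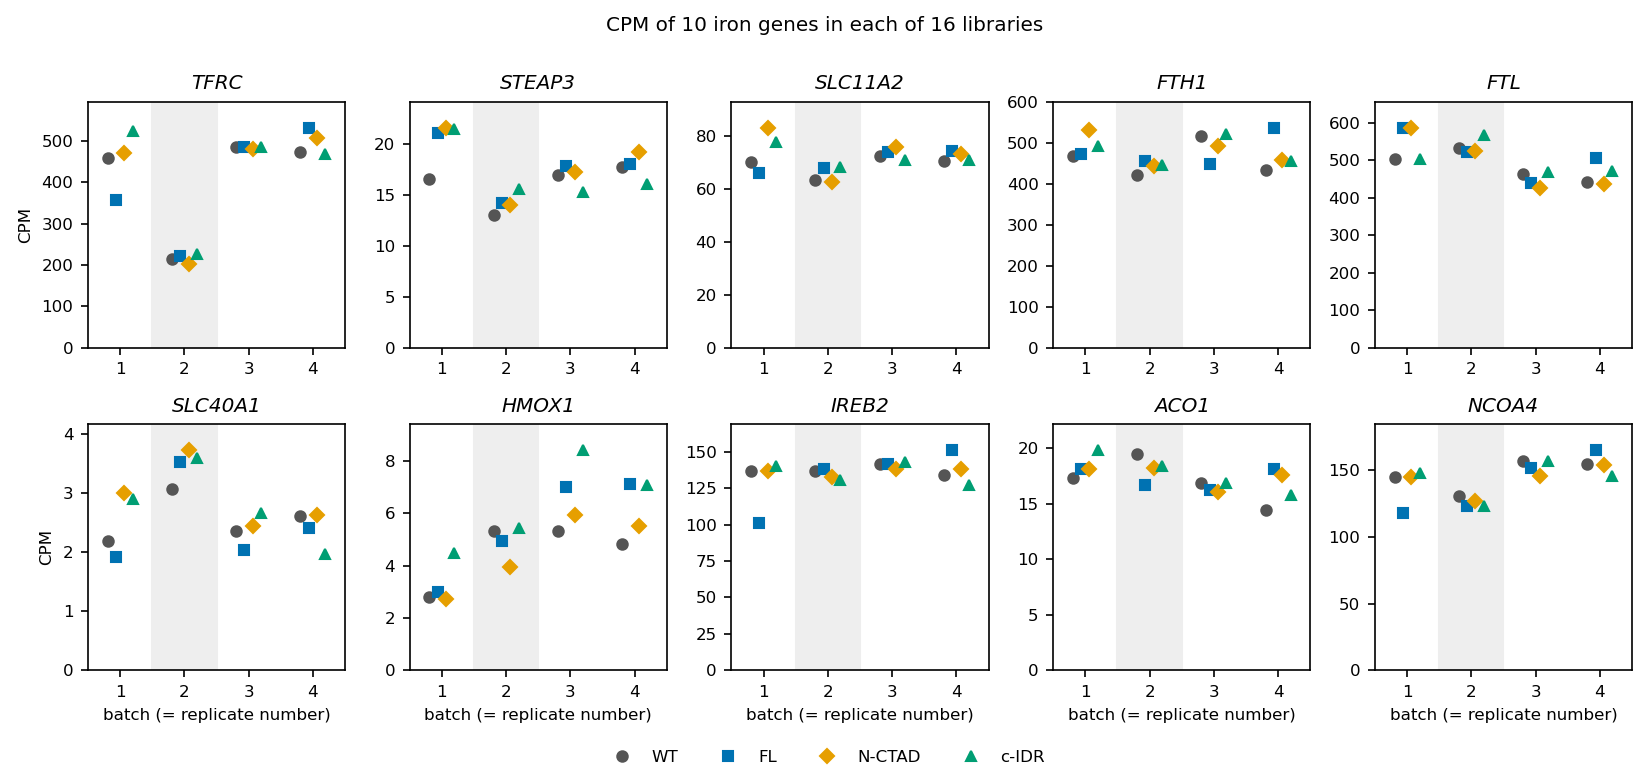
CPM of each of the 10 genes in the 16 libraries, by batch, with batch 2 shaded and groups by colour and shape. In batch 2 all 4 TFRC values lie below, and all 4 SLC40A1 values above, every value of the other batches. HMOX1 is lowest in batch 1 within each group.

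HMOX1 was lowest in batch 1 in every group, and a comparison of batch 1 with batches 3 and 4 was added after these values were seen. HMOX1 was at 2.72 to 4.47 CPM in batch 1 and at 4.83 to 8.40 CPM in batches 3 and 4, with no overlap. Batch 2, at 3.94 to 5.44 CPM, lay between and overlapped with both. The log2 fold change of batch 1 minus batches 3 and 4 was −0.99 ± 0.11, 1.98-fold lower. It is given without a test, since the HMOX1 values prompted this comparison. For other genes the test measures the spread within batches, since the libraries of batch 1 share 1 batch. FTL was higher in batch 1 by 0.26 ± 0.06 (edgeR adjusted p 0.00653). Of the 10 members 2 were called, FTL and HMOX1, beside 3642 of all genes (18.6%). The HMOX1 call restates what prompted the comparison. TFRC was at −0.12 ± 0.08 there (edgeR adjusted p 0.305), so its low level was not shared by batch 1. EPAS1 was at −0.68 ± 0.27 (edgeR adjusted p 0.091) in batch 1 and −0.45 ± 0.26 (edgeR adjusted p 0.165) in batch 2 by the same fits. The batch 2 value averages unlike groups: EPAS1 was highest in batch 2 in WT, at 28.1 CPM, and lowest there in N-CTAD, at 1320 CPM, and in c-IDR, at 2189 CPM.

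The 8 reference genes of low oxygen are described here without a test, since their high level in batch 2 was known when the comparison and the list were chosen. Their log2 fold changes ran from 0.76 for EGLN3 to 3.27 for NDRG1, with a median of 1.61. Their summed level was 501 to 802 TPM in batch 2 and 150 to 252 TPM in the other 12 libraries, so WT cells of batch 2 exceeded transfected cells of the other batches. Of the neuroblastoma markers 8 of 10 were called by edgeR, beside 53.9% of all genes, 4 higher and 4 lower, where all genes gave 5414 higher and 5107 lower. Their summed level was 5270 to 5609 TPM in batch 2 and 5517 to 6322 TPM elsewhere. Of 6 mesenchymal markers tested 4 were higher and 1 lower, with a summed level of 340 to 369 TPM in batch 2 and 289 to 474 TPM elsewhere. THY1, which makes up most of this sum, was the lower one, at −0.42 ± 0.05. FN1, DCN, COL1A1 and LUM were higher, by 0.25, 0.88, 1.31 and 1.45 on the log2 scale. The macrophage and erythroid list summed to 0.245 to 0.859 TPM and 0.071 to 0.874 TPM. The part of these in the iron genes' differences was not tested. In such bulk libraries, fewer cells of a type and less RNA per cell cannot be told apart.

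Of the other iron genes 36 of 68 were called in batch 2, near the all-gene share. They were 10 higher and 26 lower with a median of −0.07, while all genes called were 5414 higher and 5107 lower with a median of 0.03 over all genes tested. The difference in direction was not tested. Of the 9 further uptake and trafficking genes 4 were lower and 0 higher, including MCOLN1, a lysosomal channel that passes iron, at −0.59 ± 0.05 (edgeR adjusted p 1.21e-07). Of 12 sensing and turnover genes 4 were lower and 0 higher. KEAP1, the brake on the antioxidant factor NRF2, led them at 67.0 to 71.6 CPM in batch 2 and 111 to 136 CPM elsewhere (−0.82 ± 0.05, edgeR adjusted p 7.71e-09). Of 6 genes of export, storage partners and chaperones, ERFE, a hormone that lowers hepcidin, was higher (1.63 ± 0.18, edgeR adjusted p 2.38e-06), and the ferritin iron chaperone PCBP1 was lower (−0.34 ± 0.04, edgeR adjusted p 1.13e-05).

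Heme genes differed in both directions in batch 2, in which 53.9% of all genes were called. Of 8 genes of heme synthesis 3 were higher and 0 lower. Of 10 genes of heme transport and breakdown 2 were higher and 6 lower. FLVCR1, a heme exporter, was at 18.2 to 20.9 CPM in batch 2 and 25.9 to 36.2 CPM elsewhere (−0.76 ± 0.06, edgeR adjusted p 2.08e-07). BLVRB, a biliverdin reductase, was among the higher genes at 1.36 ± 0.14 (edgeR adjusted p 1.52e-06). Of 23 iron-sulfur cluster genes 4 were higher and 11 lower. Whether any of these lists differed from the all-gene share was not tested. ERFE, PCBP1 and BLVRB were chosen after their values were seen.

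**Figure D4:**
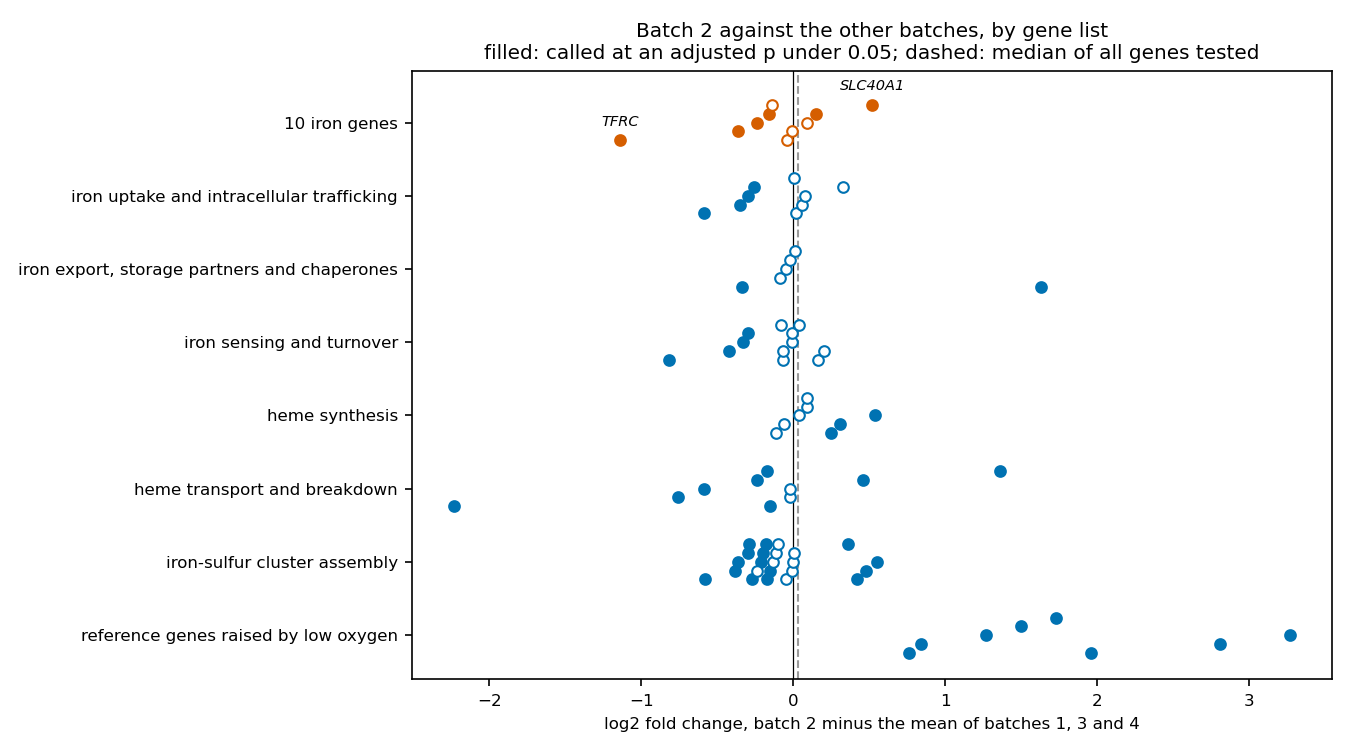
Log2 fold changes of batch 2 minus the mean of batches 1, 3 and 4 for each tested gene of 8 lists, with filled points for genes called by edgeR and a dashed line at the median of all genes tested (0.03). TFRC lies at −1.14 and SLC40A1 at 0.52, and all 8 reference genes of low oxygen lie at 0.76 or above.

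In batch 1 minus batches 3 and 4, 14 of the 68 other iron genes were called, 11 higher and 3 lower, a share near the 18.6% of all genes (2119 higher and 1523 lower). The 4 with the smallest adjusted p differed little. CDC42BPA, a kinase of the sensing list, was at −0.29 ± 0.06 (edgeR adjusted p 0.0072), and ABCB10, a mitochondrial transporter needed for heme synthesis, at −0.25 ± 0.06 (edgeR adjusted p 0.0079). The heme synthesis enzyme UROD was at 0.24 ± 0.06 (edgeR adjusted p 0.00879) and LYRM4, a partner of the cysteine desulfurase in iron-sulfur cluster assembly, at 0.23 ± 0.06 (edgeR adjusted p 0.0116).

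How much of each gene's spread lay between batches and between groups was described with sums of squares of log2 CPM over the balanced layout, without a test. TFRC had 95.1% between batches and 0.511% between groups. HMOX1 had 73.7% and 18.8%, the largest group share of the 10. For SLC40A1 the shares were 61.7% and 12.4%. IREB2 had the smallest batch share, 19.9%, with 3.94% between groups. The medians over all genes tested were 53.8% and 7.85%, so 6 of the 10 members lay above the all-gene median for batch and 4 for group. The SD of log2 CPM was 0.52 for TFRC and 0.48 for HMOX1, larger than in 79.0% and 75.8% of all genes, and 0.11 for SLC11A2 and FTH1, larger than in 9.01% and 10.0%.

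**Figure D5:**
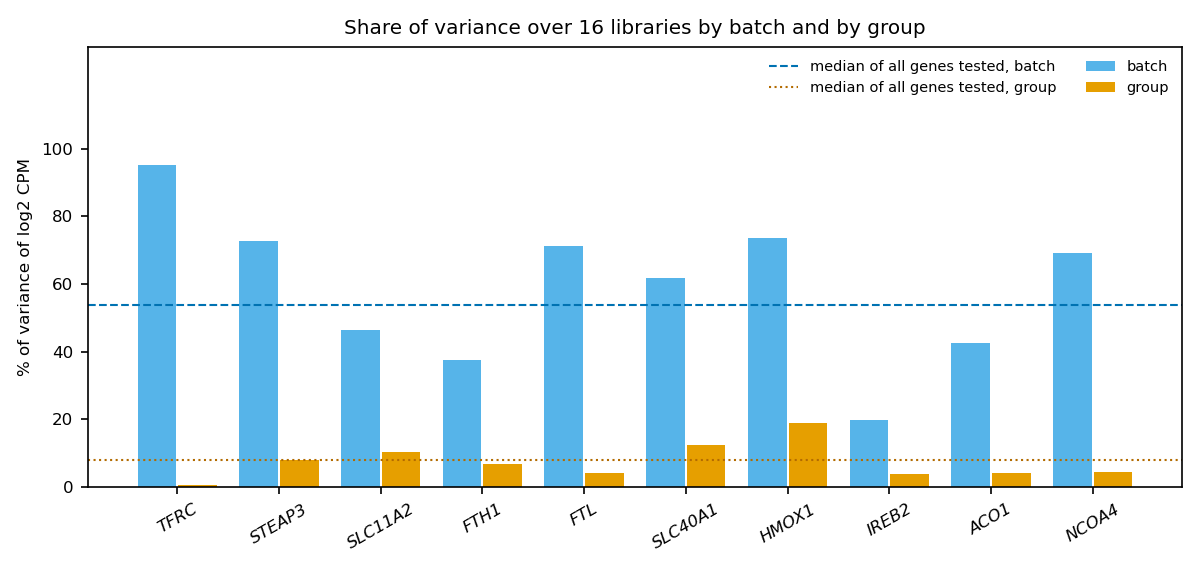
Percent of the variance of log2 CPM over the 16 libraries that lies between batches (blue bars) and between groups (orange bars) for each of the 10 genes, with lines at the medians of all genes tested. The batch bar is taller than the group bar for each gene, most of all for TFRC at 95.1% against 0.511%.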

How the data were processed

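RNA-seq of 16 SK-N-BE(2) libraries (poly(A)-selected, stranded, per the labels) was used. The authors deposited estimated counts per gene, which the table's name credits to salmon, without scaling to depth. TPM, scaled to length and depth, were deposited from the same run. Fastp, STAR, Salmon, featureCounts and GRCh38 are named in the submitters' processing notes; versions and the annotation release are not given in the sources used here. Members and lists were chosen with earlier results of these data known.

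Of the counts, 15.5% were not whole and all were rounded. The filterByExpr filter, applied by group, kept 19530 genes. Groups were compared by the edgeR 4.0.16 quasi-likelihood test in R 4.3.3 with TMM factors (0.927 to 1.05) in 1 fit over 16 libraries, with no term but group. A gene was called if its Benjamini-Hochberg adjusted p over all genes was under 0.05. The replicate number, a batch in the labels, pairs libraries: deviations from group means had a mean correlation of 0.308 in 24 same-number pairs (0.0674 to 0.712) and −0.0945 in 72 other pairs. The fit with it as a block lowered the coefficient of variation from 0.245 to 0.108. Its counts are given beside those of the fit without it, and most group differences of the members are from the blocked fit. Batch comparisons had group as a further term. Log2 CPM used a prior count of 2.

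Other settings were DESeq2 1.42.0, limma 3.58.1 on log2 TPM, other scaling and filters, and libraries or batches left out. Batch 2 left out with the block, and batch 1 against batches 3 and 4, were added after seeing the data. The named genes are the 10 members, EPAS1 and, per comparison and fit, up to 4 called genes of the other iron lists with the smallest adjusted p. One gene this rule names is not reported here. The tests were tried on simulated counts. Plots used Python 3.11.15 and matplotlib 3.10.9.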

Additional observations from a re-analysis of the deposited data

Results flagged for a closer look

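In 3 of the 40 groups of 4 libraries (10 genes in 4 groups), 1 library lay far from the other 3 by Dixon's test, which sets its gap to the nearest against the group's whole range. Chance flags about 1 group in 20. TFRC was at 215 CPM in WT replicate 2, with a gap of 0.905 of the range, and at 202 CPM in N-CTAD replicate 2, with a gap of 0.882. Both are libraries of batch 2. STEAP3 was at 21.5 CPM in c-IDR replicate 1, with a gap of 0.865, the highest of its group.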

How the results depend on the processing

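The 0 calls among the 10 iron genes held in all 6 group comparisons under the 8 other settings tried per comparison, while counts over all genes moved. With the replicate block, FL, N-CTAD and c-IDR minus WT gave 20, 89 and 95 genes, c-IDR minus FL 6 and c-IDR minus N-CTAD 1. The block changed no call of the 10 genes. DESeq2 gave 11, 17 and 8 against WT, 2 for N-CTAD minus FL and 3 for c-IDR minus N-CTAD. For N-CTAD minus WT, log2(TPM + 1) gave 1 and log2(TPM + 0.1) gave 2. Without batch 2 the counts against WT were 10, 39 and 33, and 5 for c-IDR minus FL. Without batch 2 and with the replicate block they were 16, 62 and 46, with 5 for N-CTAD minus FL, 10 for c-IDR minus FL and 0 for c-IDR minus N-CTAD. Leaving out each library gave 2 to 9 genes for N-CTAD minus WT. With the block it gave 10 to 26 (FL), 43 to 124 (N-CTAD) and 49 to 123 (c-IDR) against WT, 0 to 5, 0 to 8 and 0 to 2 between constructs in the order above, and 0 to 1 of the 10 iron genes in c-IDR minus WT (HMOX1, without WT replicate 2). In batch 2, 3 of the 10 were called with log2(TPM + 1) and 3 with log2(TPM + 0.1), since STEAP3, NCOA4 and SLC11A2 were not; with single libraries left out 4 to 7 were.

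No called difference changed sign. Among those not called, both TPM fits gave −0.10 (N-CTAD) and −0.03 (c-IDR) minus WT for TFRC, −0.05 (FL) and −0.01 (N-CTAD) for SLC11A2, −0.01 (N-CTAD) and −0.0083 (c-IDR) for FTH1, and −0.07 (N-CTAD) and −0.02 (c-IDR) for FTL. For ACO1 they gave −0.03 or −0.04 (N-CTAD) and −0.01 (c-IDR), and without the low-count filter it was −0.00056 in FL. In batch 2 they gave 0.01 or 0.03 for HMOX1 and 0.16 for IREB2. Without batch 3 or 4 the batch 2 values were 0.14 and 0.10 for HMOX1 and 0.01 and 0.0071 for IREB2. Without batch 2, SLC11A2 in FL was −0.02 with and without the block, and HMOX1 in N-CTAD was 0.13, or 0.09 with the block. With single libraries left out, differences whose sign changed ranged, for FL minus WT, as TFRC −0.24 to 0.17, SLC11A2 −0.01 to 0.05, FTH1 −0.02 to 0.10, FTL −0.0037 to 0.15, SLC40A1 −0.27 to 0.05, IREB2 −0.13 to 0.05 and ACO1 −0.05 to 0.09. For N-CTAD minus WT they ranged as TFRC −0.18 to 0.25, FTL −0.07 to 0.08, HMOX1 −0.19 to 0.17, IREB2 −0.02 to 0.0012, ACO1 −0.04 to 0.11 and NCOA4 −0.09 to 0.01, and for c-IDR minus WT as TFRC −0.15 to 0.27, FTL −0.01 to 0.10, SLC40A1 −0.03 to 0.25, IREB2 −0.06 to 0.00054, ACO1 −0.02 to 0.13, NCOA4 −0.09 to 0.03 and STEAP3 −0.04 to 0.14. For batch 2 minus the other batches they were HMOX1 −0.18 to 0.02 and IREB2 −0.05 to 0.01. The cause was not tested. The number of libraries, 4 per group, limits all group comparisons.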
